A study of Homo sapiens with 4 samples.

Results

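The actin cytoskeleton was followed through 45 genes that encode actins, non-muscle myosin II and its light chains, the proteins that line, crosslink or take apart actin filaments, and the factors that control their transcription. They were taken by gene symbol from a deposited table of 35371 symbols, and all 45 were found. The symbols themselves had been selected on the control and GD-07 levels in this same table, so no test of the group is made. The table holds transcript levels of A2780, a long-established human line from ovarian cancer. The 2 control libraries carry the treatment label none, while the series text speaks of a vehicle, and the other 2 libraries come from cells given GD-07, described there as a MYC inhibitor. Both groups were grown in 2D in DMEM with serum, and neither a dose nor a time of treatment is given in the labels. Levels are in TPM, a unit scaled per transcript length and to each library's total, so levels of different genes can be compared but sequencing depth is unknown. The labels do not say whether the 2 libraries of a group came from separate cultures, so every p-value measures the spread between these 4 libraries only, which may be technical.

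Actin monomers assemble into filaments, and non-muscle myosin II pulls on those filaments when its regulatory light chain is phosphorylated by kinases such as MYLK and ROCK. Tropomyosins, caldesmon, calponins and transgelins lie along the filament, alpha-actinins and filamin crosslink it, vinculin and zyxin tie it to adhesions, and profilins, cofilins and thymosins handle monomers and turnover. Free actin monomer holds the coactivators MRTF-A and MRTF-B (listed as MKL1 and MKL2) in the cytoplasm. When monomer is used up they enter the nucleus and join SRF, a transcription factor that binds a sequence called the CArG box in many of these same genes.

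Values and calls of the 45 genes are a description, and nothing about the group as a whole is inferred from them. Here a call means an adjusted p under 0.05 in limma, fitted on log2(TPM + 1). The fit and its Benjamini-Hochberg adjustment ran over all 13063 genes whose mean reached 1 TPM. Fold changes use that transform, so those of low genes come out too small, and each level is a share of what its library holds. In bulk RNA, fewer cells of one kind and less RNA per cell cannot be told apart.

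The labelled cell type was checked against 13 ovarian carcinoma and epithelial markers, and few were present. KRT7 was listed at 0 in all 4 libraries, and PAX8 lay between 0.0568 and 0.121 TPM. FOLR1, the folate receptor, was the marker with a clear level (46.4 and 50.1 TPM in control, 61.1 and 59.2 TPM in GD-07 libraries). EPCAM was at 1.41 and 1.48 TPM in control and at 2.12 and 4.29 TPM in GD-07 libraries. Neither FOLR1 nor EPCAM passed (limma adjusted p = 0.220 and 0.141). Of 9 fibroblast markers 7 passed the filter. The summed level of the 9 was 167 and 142 TPM in the controls against 82.6 and 108 TPM with GD-07. Most of that sum was THY1, at 95.7 and 85.1 TPM and then at 48.7 and 54.6 TPM. THY1 fell (limma adjusted p = 0.0276), but it lost its call without control replicate 1. None of the 4 endothelial markers passed the filter, and CD3E was at 0 throughout. The part of such a shift in the values below was not tested. MYC, whose product the compound is meant to block, was itself at 86.0 and 67.5 TPM in control and at 29.1 and 23.6 TPM in GD-07 libraries (limma adjusted p = 0.0109). GD-07 replicate 2 stood apart, with 14683 entries listed at 0 against 11598 to 12346 in the other libraries.

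The lowest fold changes belonged to the motor gene MYH10, the light chain MYL7, the filament-lining genes CNN1 and TAGLN and the smooth muscle actin ACTG2, while ACTB and TMSB10 were higher with GD-07. Of the 45 genes, 44 passed the filter on low values, and of these 2 rose, 11 fell and 31 did not pass. Across all genes tested, 5.21% were called, 2.02% higher and 3.19% lower. Before adjustment 23 of the 44 had a p under 0.05, as did 24.8% of all genes tested. The median log2 fold change of the 44 genes was -0.37, beside -0.04 over all genes tested, and 35 of them had a negative and 9 a positive value, against 53.8% and 46.2% of all genes tested. In 29 of the 44 both GD-07 libraries lay below both controls and in 3 they lay above, which was so for 30.5% and 25.3% of all genes tested, 55.8% together. MYLK, at 1.04 and 0.845 TPM in the controls and 0.373 and 0.439 TPM with GD-07, was the gene that did not pass the filter. The number called was 8 without control replicate 1, all of them lower, and 19 without GD-07 replicate 2, in fits that called 310 and 1055 of all genes tested. Of the 31 genes that did not pass, 11 passed in at least 1 fit that left out a library. It was 12 after median-ratio scaling, where none was higher, and 0 when no filter was applied, where no gene at all passed in limma and 24 of the 45 had an unadjusted p under 0.05.

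**Figure D1:**
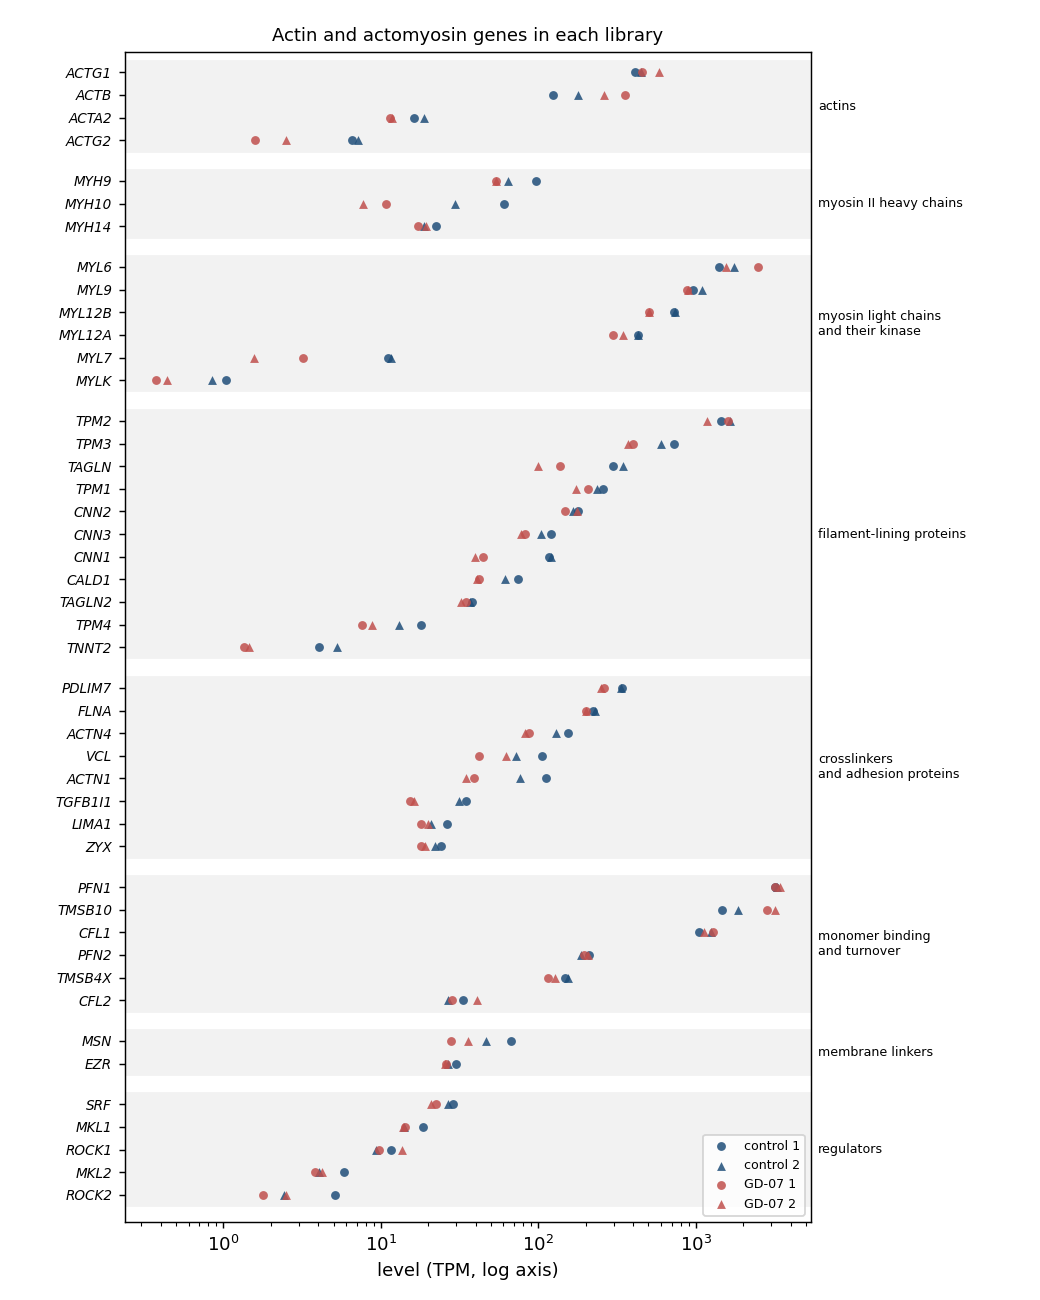
Level of each gene in TPM on a log axis, by role and ordered by mean level within a role, with circles for replicate 1, triangles for replicate 2, blue for control and red for GD-07. Levels run from under 1 TPM for MYLK to 3420.2 TPM for PFN1 in GD-07 replicate 2, and both red points lie left of both blue points for MYH10, CNN1, TAGLN and ACTN1 and right of them for ACTB and TMSB10.

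As a group the 45 genes took up almost the same part of each library, 1.61% and 1.74% of the listed TPM in the controls and 1.77% and 1.67% with GD-07. What differed was the make-up of that part, described below by role.

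Sequence just upstream of the start sites is shown first, because SRF acts through it. RefSeq promoter entries (GRCh38.p14) were matched for 41 of the 45 genes, and the 250 bases before the start were searched. Only the first entry listed for a gene was used, so any other starts of that gene were not searched. Some of the starts used lie inside the gene, among them those of MYLK, ACTG1 and CALD1. MYLK runs from 123610049 to 123884331 on chromosome 3 (minus strand), so its window is far from the gene's 5′ end. ACTB, MYL9, TAGLN and PFN2 had no entry. A CArG box, searched as one palindromic word on both strands, was present in 9 of the 41 (22.0%), against 1.16% of all 35116 promoters. Many actin genes are textbook SRF targets, so a high share follows from what the genes are and is no separate support. The share of all promoters also counts every entry, whereas the 41 genes had only their first entry searched. The windows below run 5′ to 3′ on the gene's strand and end at or before the last base upstream of the start, with the boxes in capitals.
ACTG1: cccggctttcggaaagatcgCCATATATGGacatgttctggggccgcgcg
ACTG2, distal box: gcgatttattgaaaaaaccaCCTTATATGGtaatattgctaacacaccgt
ACTG2, proximal box: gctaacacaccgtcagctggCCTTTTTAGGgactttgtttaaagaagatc
MYL7: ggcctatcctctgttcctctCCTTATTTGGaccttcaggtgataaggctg
MYLK: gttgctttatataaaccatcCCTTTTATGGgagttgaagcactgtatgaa
TPM4: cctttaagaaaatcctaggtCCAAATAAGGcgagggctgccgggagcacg
CNN2: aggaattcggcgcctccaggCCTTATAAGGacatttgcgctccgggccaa
FLNA: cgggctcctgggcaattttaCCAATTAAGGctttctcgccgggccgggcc
SRF, both boxes: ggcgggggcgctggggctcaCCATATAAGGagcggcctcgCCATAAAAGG
ROCK2: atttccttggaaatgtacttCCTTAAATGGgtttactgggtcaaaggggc
These windows lie at chr17:81512864-81512913 (minus strand) for ACTG1, chr2:73892878-73892927 and chr2:73892915-73892964 (plus) for ACTG2, chr7:44141364-44141413 (minus) for MYL7 and chr3:123620613-123620662 (minus) for MYLK. Those of the other genes lie at chr19:16067345-16067394 (plus) for TPM4, chr19:1026499-1026548 (plus) for CNN2, chrX:154374699-154374748 (minus) for FLNA, chr6:43171219-43171268 (plus) for SRF and chr2:11345481-11345530 (minus) for ROCK2.

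Whether carrying a box in this window goes with a response was not tested. Of the 9 genes, ACTG2 and MYL7 fell, 6 did not pass and MYLK was not tested, while of all 41 genes with an entry 10 fell and 1 rose. The 6 had log2 fold changes of 0.26 for ACTG1, -0.83 for TPM4, -0.10 for CNN2, -0.17 for FLNA, -0.35 for SRF and -0.55 for ROCK2. CNN1 and ACTN1 were among the genes that have no box in these bases and fell. The TEAD motif CATTCC, read on both strands, was found in 8 of the 41 promoters (19.5%), against 11.9% of all. TEAD proteins partner the coactivators YAP and TAZ, and the same word was first studied as the M-CAT element of the chicken cardiac troponin T gene. Of these 8 genes 4 fell, beside 10 of all 41 with an entry, and the other 4 did not pass. Those 4 had log2 fold changes of -0.54 for MYH9, -0.76 for VCL, 0.03 for PFN1 and -0.55 for ROCK2. Whether the word goes with a response was not tested. The windows of the 4 that fell are printed with the word, or its reverse complement GGAATG, in capitals.
MYH10: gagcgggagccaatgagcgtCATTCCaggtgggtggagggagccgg
MYL7: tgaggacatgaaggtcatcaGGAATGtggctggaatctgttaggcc
CALD1: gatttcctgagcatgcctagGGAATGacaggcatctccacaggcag
TNNT2: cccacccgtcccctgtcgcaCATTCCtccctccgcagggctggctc
They lie at chr17:8630903-8630948 (minus strand), chr7:44141446-44141491 (minus), chr7:134779420-134779465 (plus) and chr1:201377736-201377781 (minus), in that order. The MYC E-box CACGTG, chosen after the values were seen, was present in the promoters of ACTG1, MYL12A and CFL2 (7.32% against 6.34% of all), none of which passed the test. TATAAA, read on the gene's strand, was found in 1 of the 41, before the start inside MYLK (2.44% against 6.80% of all). No match says only that these letters are not in these bases.

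Of the 4 actins ACTB rose, ACTG2 fell and the other two did not pass. ACTB, cytoplasmic beta-actin (ENSG00000075624, chromosome 7 from 5527147 to 5563784 on the minus strand, GENCODE 29 on GRCh38), was at 124 and 179 TPM in control and at 353 and 262 TPM in GD-07 libraries. Both GD-07 libraries lay above both controls, and its log2 fold change was 1.02 ± 0.21 (± is limma's standard error throughout, limma adjusted p = 0.0332). ACTG1, cytoplasmic gamma-actin, was the more abundant form in each library, at 411 and 447 TPM and then 455 and 584 TPM, a log2 fold change of 0.26 ± 0.17 that did not pass (limma adjusted p = 0.366). With GD-07 replicate 1 left out that value was 0.45, which passed (limma adjusted p = 0.0433), and with GD-07 replicate 2 left out it was 0.08. ACTG2, the enteric smooth muscle gamma-actin whose promoter carries both printed boxes, was at 6.54 and 7.12 TPM in control and at 1.59 and 2.48 TPM in GD-07 libraries. It fell by 1.38 ± 0.22 in log2 (limma adjusted p = 0.0205). ACTA2, vascular smooth muscle alpha-actin, was at 16.2 and 18.9 TPM and then at 11.5 and 11.8 TPM, and did not pass (limma adjusted p = 0.101).

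Summed over the 4 genes, actin was at 558 and 653 TPM in control and at 821 and 860.4 TPM in GD-07 libraries. Within that sum ACTB made up 22.2% and 27.5% in the controls and 43.0% and 30.4% with GD-07, so the GD-07 libraries differed more from each other than the controls did. The smooth muscle pair together was a small part, with ACTA2 at 2.90% and 2.89% of actin in the controls and 1.40% and 1.37% with GD-07. The call of ACTB ended without control replicate 1 (limma adjusted p = 0.130), after median-ratio scaling (0.0616) and without limma's intensity trend (0.0650). Of the distinct 31-base words in ACTB transcripts, 16.1% also occur in transcripts of other genes, mainly actin pseudogenes and POTE genes, so its level depends on how shared reads were assigned. For ACTA2 the share was 31.5%, with the antisense gene ACTA2-AS1 and the neighbour FAS as the main partners.

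Among the motor genes, MYH10 had the lowest fold change of all 44. MYH10, the heavy chain of non-muscle myosin IIB (ENSG00000133026, chromosome 17 from 8474205 to 8630761, minus strand), was at 60.5 and 29.7 TPM in control and at 10.7 and 7.72 TPM in GD-07 libraries. The controls lay far apart, yet both were above both GD-07 libraries. Its log2 change was -2.11 ± 0.30 (limma adjusted p = 0.0193), and it was -2.61 without control replicate 2 and -1.60 without control replicate 1, with a call each time. MYH9, the IIA heavy chain, was at 95.9 and 64.5 TPM and then at 53.5 and 53.9 TPM (log2 fold change -0.54 ± 0.19, limma adjusted p = 0.127). MYH14, the IIC heavy chain, was at 22.3 and 18.6 TPM and then at 17.1 and 19.2 TPM, with overlapping groups. The value of MYH9 was -0.83 without control replicate 2, where it passed (limma adjusted p = 0.0325), and -0.26 without control replicate 1 (0.768).

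The make-up of the motor pool differed accordingly. MYH10 held 33.8% and 26.3% of the summed heavy chain TPM in the controls and 13.1% and 9.55% with GD-07, while MYH9 held 53.7% and 57.1% and then 65.8% and 66.7%. Total heavy chain TPM was 179 and 113 in the controls, a wide spread, and 81.3 and 80.8 with GD-07.

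The light chains were far more abundant than the heavy chains and mostly did not pass. MYL6, the essential light chain, was at 1399 and 1755 TPM in control and at 2465 and 1562 TPM in GD-07 libraries, so its groups overlapped. Its log2 fold change of 0.32 ± 0.24 was 0.65 without GD-07 replicate 2, where it passed (limma adjusted p = 0.0380), and near 0 without GD-07 replicate 1. The regulatory light chains MYL9, MYL12A and MYL12B were all lower in both GD-07 libraries, as were 30.5% of all genes tested, and none passed. MYL12B was at 731 and 733 TPM and then at 506 and 501 TPM, with a log2 change of -0.54 ± 0.15 (limma adjusted p = 0.0662). MYL12A was at 427 and 427 TPM and then at 298 and 347 TPM (limma adjusted p = 0.138). These neighbours on chromosome 18 share 171 of their 31-base words, 13.6% of the words of MYL12A and 13.5% of those of MYL12B lying in other genes, so reads could be divided between them in more than one way. MYL9 was at 960 and 1100.4 TPM and then at 883 and 895 TPM (limma adjusted p = 0.456).

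MYL7, the atrial regulatory light chain of heart muscle, was a low-level exception. It was at 11.01 and 11.5 TPM in control and at 3.20 and 1.56 TPM in GD-07 libraries, a log2 change of -1.90 ± 0.26 (limma adjusted p = 0.0137). None of its 31-base words occurs in another gene of GENCODE 29, so no word of that length is shared. MYL7 lies on chromosome 7 from 44138864 to 44141332 on the minus strand, and its promoter holds both a CArG box and a TEAD word, printed above.

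All 11 genes of the proteins that line actin filaments had negative fold changes, and 5 of them fell. Of all genes tested, 53.8% had a negative value and 3.19% fell. CNN2 turned positive without GD-07 replicate 1 and TPM2 without GD-07 replicate 2. CNN1, smooth muscle calponin, which binds actin and slows myosin (ENSG00000130176, chromosome 19 from 11538717 to 11550323, plus strand), was at 116 and 119.8 TPM in control and at 44.6 and 39.8 TPM in GD-07 libraries. The replicates lay close together, and its log2 fold change of -1.46 ± 0.14 had the smallest adjusted p of the 44 genes (limma adjusted p = 0.00695). TAGLN, transgelin or SM22, an actin-binding marker of smooth muscle and myofibroblasts, was at 297 and 344 TPM and then at 137 and 100.1 TPM. It fell by 1.44 ± 0.18 in log2 (limma adjusted p = 0.0114). TAGLN overlaps PCSK7 on the other strand over 11.4% of its exonic bases, and PCSK7 was at 10.4 to 17.3 TPM. TNNT2, cardiac troponin T, was at 4.07 and 5.26 TPM and then at 1.36 and 1.45 TPM, a log2 change of -1.23 ± 0.22 (limma adjusted p = 0.0227).

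The paralogs of CNN1 and TAGLN did not pass, and the difference between paralogs was not tested. CNN2, a calponin of non-muscle cells, was at 178 and 167 TPM in control and at 147 and 175 TPM in GD-07 libraries, so its groups overlapped. CNN3 was at 120.5 and 103.8 TPM and then at 82.6 and 77.0 TPM (limma adjusted p = 0.0882). CNN1 made up 28.0% and 30.7% of calponin TPM in the controls and 16.2% and 13.7% with GD-07. Similarly TAGLN2, the form found in many non-muscle cells, was at 37.8 and 36.7 TPM and then at 34.7 and 32.4 TPM, with a log2 fold change of -0.15 ± 0.15. The share of TAGLN in the transgelin pair was 88.7% and 90.4% in the controls and 79.8% and 75.5% with GD-07.

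**Figure D2:**
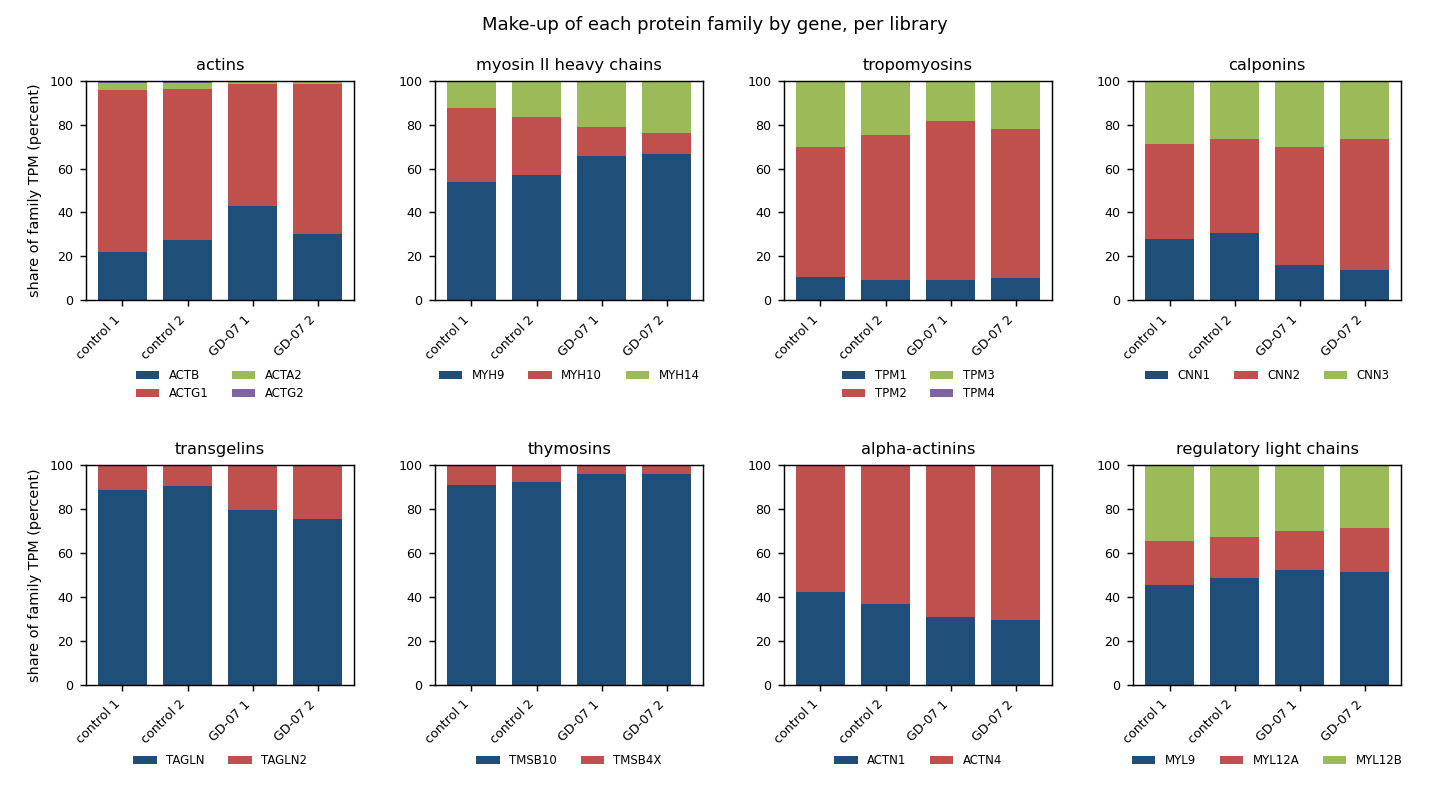
Share of each family's summed TPM held by each of its genes, in percent, for the 4 libraries. MYH10, CNN1, TAGLN, ACTN1 and TMSB4X take a smaller share in both GD-07 libraries than in both controls, as do the thin ACTA2 and ACTG2 segments at the top of the actin bars.

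The tropomyosins, coiled-coil dimers that set which motors and severing proteins reach the filament, all had negative values, and TPM3 fell. TPM3 was at 721 and 599 TPM in control and at 397 and 372 TPM in GD-07 libraries, a log2 change of -0.77 ± 0.16 (limma adjusted p = 0.0332). TPM2, the most abundant of them, was at 1448 and 1642 TPM and then at 1607 and 1171 TPM, with overlapping groups. TPM1 was at 258 and 236 TPM and then at 207 and 172 TPM (limma adjusted p = 0.164), and 22.9% of its 31-base words lie in other genes, mainly its antisense gene TPM1-AS. TPM4, at 18.0 and 13.0 TPM and then at 7.55 and 8.83 TPM, had a log2 fold change of -0.83 ± 0.21 that just missed the threshold (limma adjusted p = 0.0545). CALD1, caldesmon, which restrains actomyosin, was at 73.8 and 61.1 TPM and then at 41.9 and 40.9 TPM, a log2 change of -0.69 ± 0.16 (limma adjusted p = 0.0422). With control replicate 1 left out, TPM3 and CALD1 lost their calls (limma adjusted p = 0.311 and 0.325), as they did without the trend (0.0627 and 0.0773). TPM3 also ended after median-ratio scaling (limma adjusted p = 0.0639) and CALD1 after quantile normalization (0.0523).

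Crosslinkers and adhesion proteins were lower in both GD-07 libraries for each of the 8 genes, and 3 fell. Of all genes tested, 30.5% lay lower in this way and 3.19% fell. The genes had been selected on these same levels, so the shared direction is a description only. ACTN1, alpha-actinin 1, which bundles stress fibres (chromosome 14 from 68874143 to 68979440, minus strand), was at 112 and 76.7 TPM in control and at 39.2 and 34.8 TPM in GD-07 libraries. Its log2 change was -1.30 ± 0.19 (limma adjusted p = 0.0194). ACTN4, alpha-actinin 4, was at 153 and 129.9 TPM and then at 87.0 and 82.4 TPM, a log2 change of -0.73 ± 0.15 (limma adjusted p = 0.0327). Together the alpha-actinins were at 265 and 207 TPM and then at 126 and 117 TPM. TGFB1I1, or HIC-5, a LIM protein of focal adhesions, fell from 34.7 and 31.4 TPM to 15.4 and 16.2 TPM (log2 fold change -1.02 ± 0.16, limma adjusted p = 0.0197). The call of ACTN4 ended without control replicate 1 (limma adjusted p = 0.234) and without the trend (0.0676), and 14.2% of its exonic bases overlap genes on the other strand, mainly CAPN12, which was at 6.81 to 11.6 TPM.

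The other 5 genes of this role did not pass. VCL, vinculin, was at 106 and 71.9 TPM in control and at 41.8 and 62.6 TPM in GD-07 libraries, with a log2 change of -0.76 ± 0.23 (limma adjusted p = 0.0886). It passed without control replicate 2 (log2 fold change -1.03, limma adjusted p = 0.00369) and without GD-07 replicate 2 (-1.04, limma adjusted p = 0.00604). It was -0.48 without control replicate 1 (limma adjusted p = 0.425) and -0.47 without GD-07 replicate 1 (0.123). PDLIM7, a PDZ and LIM protein of stress fibres, was at 341 and 335 TPM and then at 259 and 249 TPM (limma adjusted p = 0.114). FLNA, filamin A, was at 221 and 229.8 TPM and then at 202 and 199.5 TPM (log2 fold change -0.17 ± 0.14), and zyxin (ZYX) and LIMA1 had log2 fold changes of -0.30 ± 0.16 and -0.30 ± 0.18.

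Genes that bind monomers or turn filaments over included the most abundant of the 45, and of the 6 only TMSB10 passed, as higher. TMSB10, thymosin beta 10, a small peptide that sequesters actin monomers (ENSG00000034510, chromosome 2 from 84905625 to 84906675, plus strand), was at 1471 and 1858 TPM in control and at 2821 and 3188 TPM in GD-07 libraries. Both GD-07 libraries lay above both controls, and its log2 change was 0.86 ± 0.19 (limma adjusted p = 0.0418). Its paralog TMSB4X was at 147 and 154 TPM and then at 115 and 127 TPM, a log2 fold change of -0.31 ± 0.14 that did not pass (limma adjusted p = 0.214). TMSB4X made up 9.07% and 7.64% of the pair in control and 3.92% and 3.83% in GD-07 libraries. The call of TMSB10 was the least stable of the 13. It ended without control replicate 1 (limma adjusted p = 0.534) and without control replicate 2 (0.135), after median-ratio scaling (0.0969) and without the trend (0.0581).

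Profilins and cofilins had fold changes near 0. PFN1, profilin 1, which feeds actin monomers to growing ends, was the most abundant of the 45 genes, at 3193 and 3297 TPM in control and at 3191 and 3420.2 TPM in GD-07 libraries. CFL1, cofilin 1, which severs filaments, was at 1040.0 and 1246 TPM and then at 1281 and 1126 TPM. Their log2 fold changes were 0.03 ± 0.19 and 0.08 ± 0.18. PFN2 and CFL2 had values of 0.01 ± 0.14 and 0.18 ± 0.21, and the groups of all 4 genes overlapped. In fits that left out 1 library, the signs of all 4 turned at least once, so no direction is given for them.

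The membrane linkers ezrin (EZR) and moesin (MSN), which tie filaments to the plasma membrane, did not pass. MSN was at 67.3 and 46.8 TPM in control and at 27.8 and 35.6 TPM in GD-07 libraries, with a log2 fold change of -0.81 ± 0.21 just outside the threshold (limma adjusted p = 0.0538). EZR was at 29.8 and 26.8 TPM and then at 25.9 and 25.3 TPM (log2 fold change -0.14 ± 0.16). MSN passed as lower after median-ratio scaling and when either GD-07 library or control replicate 2 was left out, with limma adjusted p between 0.00292 and 0.0496. Without control replicate 1 it was -0.56 and did not pass (limma adjusted p = 0.333).

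None of the 5 regulators passed. SRF itself was at 28.9 and 26.8 TPM in control and at 22.4 and 20.9 TPM in GD-07 libraries, a log2 change of -0.35 ± 0.16 (limma adjusted p = 0.214). Its coactivators were at 18.6 and 13.9 TPM and then at 14.2 and 13.9 TPM for MKL1, and at 5.84 and 4.05 TPM and then at 3.80 and 4.25 TPM for MKL2. The groups of both overlapped. The kinase ROCK1 was at 11.6 and 9.24 TPM and then at 9.76 and 13.6 TPM, and ROCK2 at 5.10 and 2.43 TPM and then at 1.78 and 2.51 TPM, again with overlap. These are mRNA levels, and the activity of SRF, its coactivators and the kinases was not measured.

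**Figure D3:**
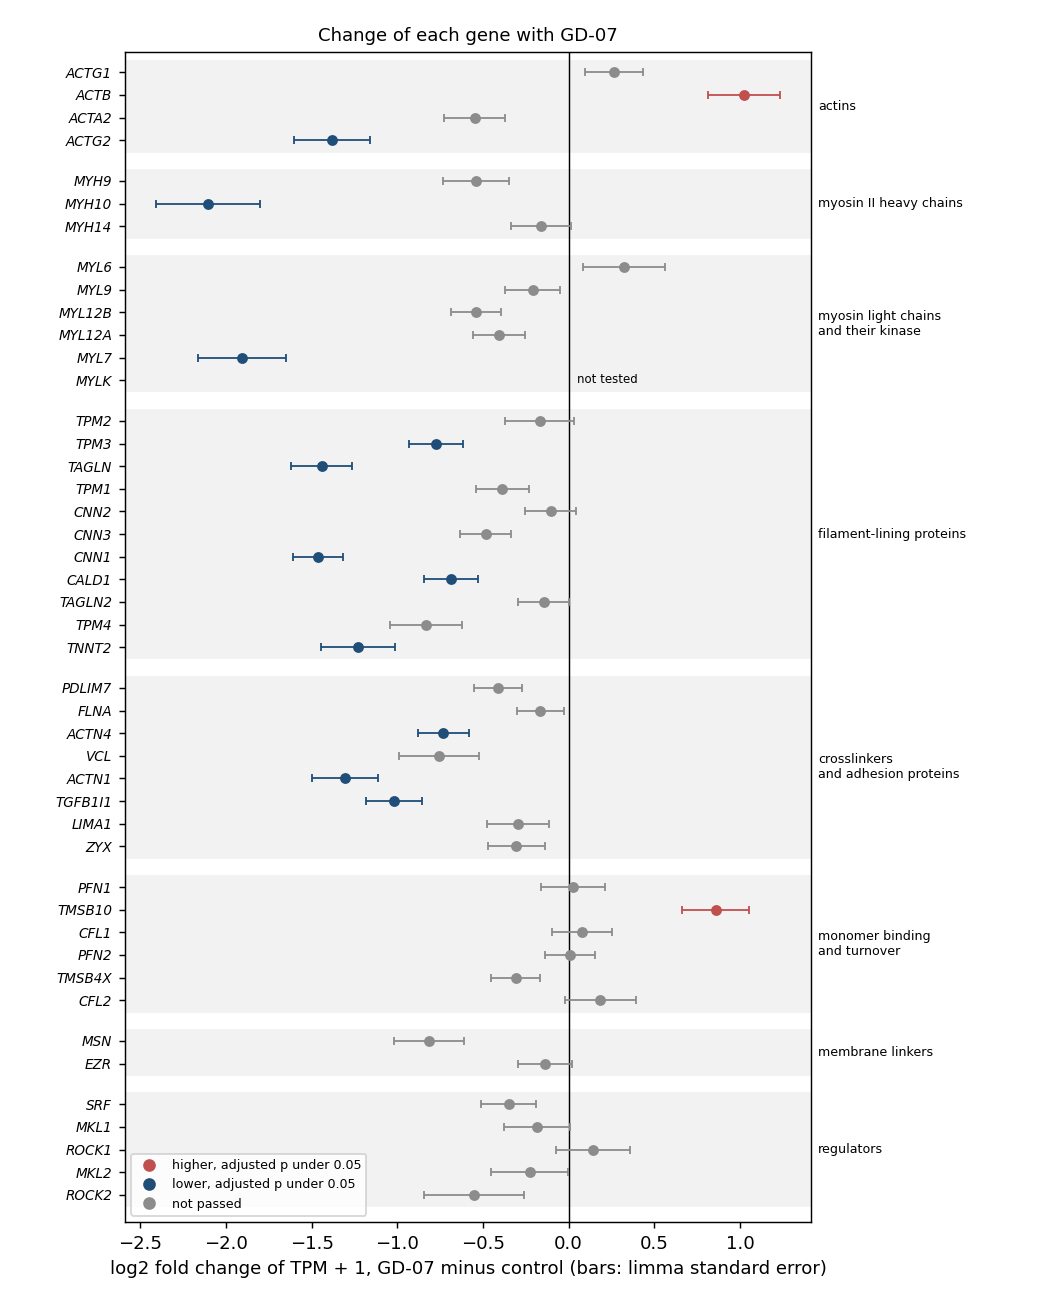
Log2 fold change of TPM + 1 for each gene, GD-07 minus control, by role, with limma's standard error as bars. Blue points passed as lower, red as higher and grey did not pass, and the blue points reach from -0.69 for CALD1 to -2.11 for MYH10.

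Set side by side, the 13 called genes fell into those whose calls held widely and those whose calls did not. ACTG2, MYH10, MYL7, CNN1, TAGLN, TNNT2, ACTN1 and TGFB1I1 kept their calls under each alternative in which they were tested, other than the one with no filter. Their limma adjusted p reached at most 0.0452 there, for TNNT2. Mean control levels of these 8 ran from 4.66 TPM for TNNT2 to 321 TPM for TAGLN. ACTB, TPM3, CALD1, ACTN4 and TMSB10 each lost their calls without control replicate 1, and their sizes there ran from -0.64 for TPM3 to 0.76 for ACTB on the log2 scale.

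Other parts of the actin machinery were read from 6 lists written from general knowledge, with earlier results of these data known. Of their 102 genes tested 4 passed (3.92%), a share near the 5.21% of all genes tested. None of 20 genes of the Arp2/3 complex, which nucleates branched filaments, and its activators passed, with a median log2 fold change of -0.09. The nearest were ARPC1A, at 107 and 104 TPM in control and at 152 and 160.3 TPM in GD-07 libraries (limma adjusted p = 0.0502), and ACTR3, at 176 and 139 TPM and then at 109.7 and 95.9 TPM (0.0662). None of 12 formins and Ena/VASP proteins, which extend unbranched filaments, passed (median -0.14), with ENAH nearest at 170.2 and 110.6 TPM and then 72.9 and 81.5 TPM (limma adjusted p = 0.0507) and VASP at a limma adjusted p of 0.0850.

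Of 27 capping, severing and bundling genes 2 rose and 1 fell. SPTAN1, a spectrin of the membrane skeleton, was at 96.7 and 79.7 TPM in control and at 171 and 155 TPM in GD-07 libraries (log2 fold change 0.89 ± 0.15, limma adjusted p = 0.0227). GSN, gelsolin, which severs and caps filaments, was at 32.5 and 30.1 TPM and then at 53.1 and 52.5 TPM (0.74 ± 0.15, limma adjusted p = 0.0321). WDR1, which helps cofilin take filaments apart, was at 265 and 234 TPM and then at 148 and 121 TPM (-0.89 ± 0.16, limma adjusted p = 0.0230). WDR1 is also 1 of 23 reported MRTF-SRF targets outside the 45 genes, of which it and CYR61 fell and 21 did not pass, with a median of -0.15. CYR61, a secreted matricellular protein also regulated through YAP and TAZ, was at 30.95 and 24.2 TPM and then at 10.2 and 14.7 TPM (-1.10 ± 0.21, limma adjusted p = 0.0300). Without control replicate 1, SPTAN1 alone of these 4 genes passed.

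None of 19 focal adhesion genes passed (median -0.23). TES and FBLIM1 came nearest, with log2 fold changes of -0.59 ± 0.15 and -0.66 ± 0.18 (limma adjusted p = 0.0531 and 0.0633). None of 8 kept genes of the striated muscle sarcomere passed (median -0.08), with TNNC2 and TNNI1 nearest (limma adjusted p = 0.166 and 0.366), and 13 of the 21 listed were under the filter. Of 5 kept smooth muscle markers, CNN1 and ACTG2, both described above, fell, while DES and LMOD1 had log2 fold changes of 0.26 and 0.34 without passing. MYH11, the smooth muscle heavy chain, was at 0.896 and 1.05 TPM and then at 0.468 and 0.434 TPM, under the filter. The 4 calls of the 6 lists became 1 and 8 (0.98% and 7.84%) without control replicates 1 and 2, and 24 and 13 (23.5% and 12.7%) without GD-07 replicates 1 and 2. The same fits called 2.37%, 5.53%, 17.0% and 8.08% of all genes tested.

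**Figure D4:**
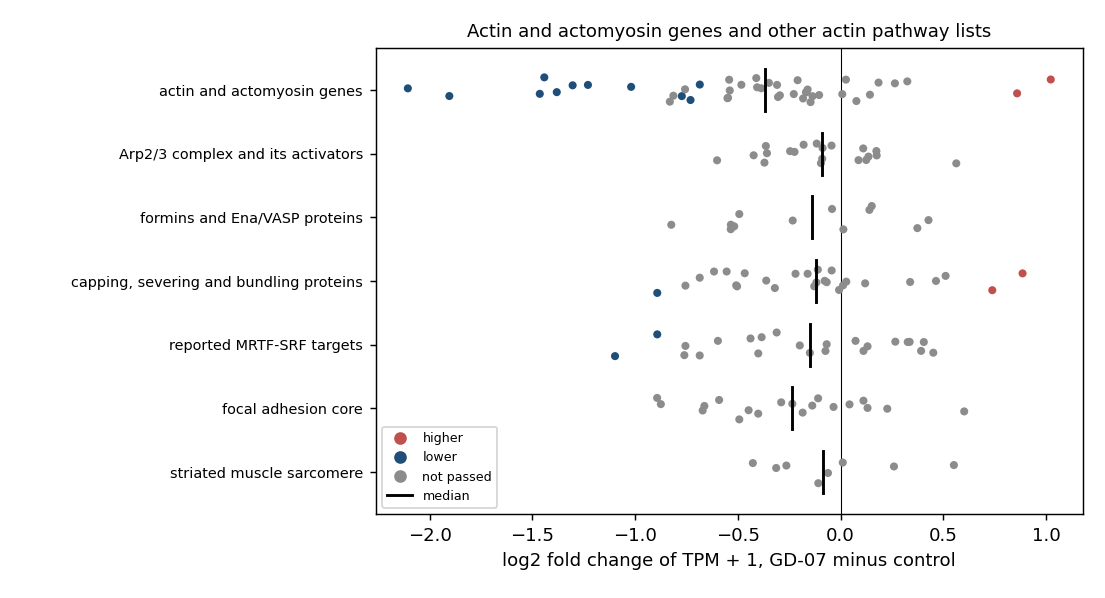
Log2 fold change of TPM + 1, GD-07 minus control, for the kept actin and actomyosin genes and for 6 other lists, 1 point a gene and a black bar at each median. The medians of the lists lie between -0.23 and -0.08, and that of the actin and actomyosin genes lies at -0.37.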

How the data were processed

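Per the labels' protocols, oligo(dT) beads captured the mRNA, NEBNext Ultra II reagents turned it into libraries, and both fragment ends were sequenced. The authors deposited TPM per gene symbol for each library. The submitters' processing notes name GRCh38, limma 3.60.4, Subread and kallisto, with no role or order. How transcripts were combined per symbol, and whether strand was used, is not given in the sources used here. Depth is unknown, so no counting intervals are given.

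From these values, the 13063 genes whose mean reached 1 TPM were kept, transformed as log2(TPM + 1), and compared between 2 control and 2 GD-07 libraries with limma 3.58.1 in R 4.3.3 (eBayes with trend, two-sided, Benjamini-Hochberg). An exact permutation test of 2 against 2 cannot go below p = 0.333, so none was run. In a test on simulated data, false calls took a larger share of the calls than the adjusted threshold implies. The members and lists were chosen with earlier results of these data known. All 45 members are named. Of each other list, up to 4 called genes with the largest change are named, or otherwise the 2 with the smallest p. 1 further list is not reported here. Markers outside this rule were named after their values were seen. Gene positions and 31-base words come from GENCODE 29 on GRCh38, promoters from RefSeq on GRCh38.p14. No protein sequence was used here.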

Additional observations from a re-analysis of the deposited data

How the results depend on the processing

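With 2 libraries a group, counts of calls moved with the fit. With no filter on low values limma called 0 of 26773 genes (3970 had an unadjusted p under 0.05, and the smallest adjusted p was 0.219), and so 0 of the 45 actin and actomyosin genes and 0 genes of the other actin lists. Of all genes 681 passed, 264 higher and 417 lower, against 385 (158 and 227) without limma's trend and 778 (383 and 395) after quantile normalization. Of the actin and actomyosin genes 13 passed, 2 higher and 11 lower, against 8 (0 higher) without the trend and 12 (0 higher) after median-ratio scaling. Of the other lists 4 genes passed, against 9 with a minimum mean of 5 TPM. Leaving out 1 library each gave 310 to 2217 genes over all (150 to 874 higher, 160 to 1343 lower), 8 to 19 actin and actomyosin genes (0 to 3 higher, 8 to 16 lower) and 1 to 24 of the other lists. Such fits take the lone library to vary as the other group does. The median log2 fold change of the actin and actomyosin genes ran from -0.43 to -0.29 over all alternatives. With a pseudocount of 5 TPM the log2 fold changes of ACTG2, TNNT2 and MYL7 were -0.75, -0.59 and -1.15, still called. No called gene of the 45 changed sign under any alternative run. The cause of these shifts was not tested.

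The shared replicate numbers are not known to pair the libraries. A replicate block gave 912 genes over all (320 higher, 592 lower), 14 actin and actomyosin genes, of which 1 was higher, and 7 genes of the other lists, and TMSB10 lost its call (limma adjusted p = 0.108). Same-numbered libraries deviated from their group means in opposite ways (r = -0.279 across 13063 genes). A crossed block, added after seeing the data, gave 2934 genes over all (1198 higher, 1736 lower), 20 actin and actomyosin genes (18 lower) and 30 of the other lists.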

Other observations

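Besides TNNT2 and MYL7, other genes named for striated muscle were present in these cells, and these values were picked out after they were seen. TNNT1, slow skeletal troponin T, was at 927 and 1037 TPM in control and at 947 and 704 TPM in GD-07 libraries, above ACTG1 in each library. TNNC1, the troponin C of slow and cardiac muscle, was at 132 and 164 TPM and then at 150.1 and 93.4 TPM, and TNNI3, cardiac troponin I, was at 10.3 and 12.5 TPM and then at 14.1 and 13.5 TPM. None of the 3 passed limma's test (adjusted p = 0.417 for each of them). The sarcomeric myosins MYH6 and MYH7 and the giant protein titin (TTN) were all under 0.5 TPM in each library, and MYL2 was listed at 0 throughout. Other sarcomere genes passed the filter at low levels. Among them were the myosin heavy chain MYH3 (2.45 to 3.30 TPM), the light chain MYL3 (1.64 to 2.08 TPM) and NEB (0.901 to 1.26 TPM). ACTB was below ACTG1 in all 4 libraries.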
